A study of Homo sapiens with 6 samples.

Results

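The genes described here were 10 members of the S100 family of small calcium-binding proteins, S100A2, S100A3, S100A4, S100A6, S100A10, S100A11, S100A13, S100A14, S100A16 and S100P, chosen by gene symbol out of the 62710 genes in the count table. They were measured by RNA-seq in 6 libraries of HCT116, a human colon cancer cell line. In 3 libraries (sh-NC) the cells carried a scrambled control, and in the other 3 (sh-IGF2BP3) an shRNA against IGF2BP3, an RNA-binding protein that reads N6-methyladenosine and stabilizes mRNAs. Both kinds of cells were made by lentiviral infection and kept as stable lines, so each group is 1 infected line with 1 construct, and no source used here says whether the 3 libraries of a group came from separate cultures. The p-values therefore measure the spread between these libraries, which may be technical.

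S100 proteins are short EF-hand proteins that work mostly as dimers. On binding calcium most of them expose a surface that grips a partner, such as an annexin, a myosin heavy chain or a co-chaperone, and some are also secreted and act on receptors such as AGER (RAGE). Most of the genes lie side by side in a cluster on chromosome 1, and several members are known for raised expression in colon and other carcinomas. These sentences are background and not results of the libraries.

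Of the 10 genes, 9 lie on chromosome 1, all on the minus strand (GRCh38), and S100P lies on chromosome 4 (6693878 to 6697170, plus strand). S100A10 (ENSG00000197747, 151982915 to 151993859) and S100A11 (ENSG00000163191, 152032506 to 152047907) lie apart from the others, which stand between S100A6 (ENSG00000197956, from 153534599) and S100A13 (ENSG00000189171, to 153631360). S100A3 (ENSG00000188015, 153547329 to 153549258) lies wholly inside the span of S100A4 (ENSG00000196154, 153543613 to 153550136) on the same strand, but their exons share 0 bases. S100A13 shares 235 exonic bases with S100A1 on the opposite strand. It shares 536 with the gene ENSG00000271853 on its own strand, which had at most 3 counts in any library. Since the use of strand in counting is not given in the sources used here, reads of S100A13 and S100A1 cannot be told apart where they overlap. The antisense gene ENSG00000238279 shares 23 exonic bases with S100A6 and had 28 to 42 counts a library, against at least 3315 for S100A6.

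Stretches upstream of an annotated start are shown for 3 genes, because these genes differ in the results that follow. S100A2 has the largest difference between the groups, S100A14 is the tested member with a difference in the opposite direction, and S100A11 stands between them. All 3 stretches lie inside the annotated span of their gene, so they precede an annotated start and not the whole gene. Each is 100 bases on the minus strand of GRCh38.p14 from RefSeq, written 5′ to 3′, outside any GENCODE 29 exon and within 250 bases of an annotated start. Capitals mark a match on either strand to 1 of 4 motifs: the TATA box TATAAA, the GC box GGGCGG, the AP-1-type motif TGANTCA and the CCAAT box.
S100A2, chr1:153565866-153565965: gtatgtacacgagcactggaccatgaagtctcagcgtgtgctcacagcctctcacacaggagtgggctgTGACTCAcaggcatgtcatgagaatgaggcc
S100A11, chr1:152037036-152037135: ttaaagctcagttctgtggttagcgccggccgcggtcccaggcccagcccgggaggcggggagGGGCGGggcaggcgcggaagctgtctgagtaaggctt
S100A14, chr1:153616356-153616455: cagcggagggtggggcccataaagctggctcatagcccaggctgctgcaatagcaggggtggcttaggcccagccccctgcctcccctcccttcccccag

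The S100A2 stretch holds TGACTCA, an AP-1-type motif, 52 bases before the start. Over the 250 bases before the start, TGANTCA was found in 6.57% of 35116 RefSeq promoters, and the shares that follow are over the same window. A second annotated start of S100A2 has none of the 4 motifs in its window. The S100A11 stretch holds GGGCGG, a GC box, 68 bases before the start, a motif found in 42.6% of promoters. None of the 4 motifs was found in the 250 bases before the S100A14 start. Outside the stretches shown, S100A4, S100P and S100A13 have TATAAA at 31, 28 and 29 bases before a start, against 10.7% of promoters with that motif anywhere in the window. S100A6 has GGGCGG 3 times, at 90, 79 and 75 bases before its start, the last 2 of which overlap, and S100A3, S100A10, S100A13 and S100A16 hold it once. S100A3 also has a match to TGANTCA upstream of its start. The CCAAT box, found in 32.0% of promoters, is present upstream of S100A3, S100A13 and S100A16. These matches are descriptions of the sequence only.

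The libraries held 16146718 to 23576469 counts on genes. IGF2BP3, the target of the shRNA, was measured at 90.3, 84.1 and 70.3 CPM (counts scaled to a common library total by TMM) in the sh-NC libraries and at 60.2, 52.3 and 55.8 CPM in the sh-IGF2BP3 libraries, in the order of replicates 1, 2 and 3 as in all later lists of 3 values, so the groups did not overlap. Its log2 fold change of −0.54 did not pass the adjusted threshold (edgeR's quasi-likelihood test, adjusted p = 0.126). It was −0.22 with the trends with GC content and gene length removed, and −0.25 with those of the principal transcript, and the groups overlapped under both. With sh-NC 1 left out and the former trends removed it was −0.031. The study reported the knockdown in HCT116 from qPCR and Western blotting, which are measurements apart from these libraries. The libraries did not group by label throughout: sh-NC 1 and sh-IGF2BP3 3 were the closest pair of all 15, with a chi-square over its degrees of freedom of 10.1, while the closest pair of 1 group had 19.8. Calls of members and partners, and counts higher at an unadjusted p below 0.05, are given both ways where 1 of these libraries changes them. The epithelial markers EPCAM, CDH1, KRT8, KRT18 and KRT19 were above 1 CPM in every library, whereas VIL1 and CDX1, markers of differentiated intestine, had 9 and 1 counts over all 6. The 4 leukocyte markers summed to at most 0.971 CPM in any library. Of the 3 fibroblast markers, summed at 28.5 to 48.2 CPM in sh-NC and 30.0 to 59.8 CPM in sh-IGF2BP3, nearly all counts were COL1A1, and the 2 endothelial markers summed to at most 3.93 CPM. The part of these markers in the results was not tested.

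Levels of the genes were compared with one another as FPKM, which is scaled by gene length. S100A6 (calcyclin) and S100A4 (metastasin) were highest in sh-NC, at 191 ± 19.5 and 187 ± 20.8 FPKM (SD, n = 3), and their ranges overlapped. S100A11, S100A14, S100A10 and S100A16 followed at 61.1 ± 5.17, 57.9 ± 14.1, 50.7 ± 7.15 and 48.4 ± 8.12 FPKM, each overlapping the next in the order. S100A2, S100A3 and S100A13 were lower, again with overlapping ranges, at 4.82 ± 0.794, 4.00 ± 0.705 and 3.32 ± 0.601 FPKM. The place of S100A13 depends on the gene length used, 2216 bases, against 686 bases for its principal transcript. The ranges separated between S100A4 and S100A11, between S100A16 and S100A2, and between S100A13 and S100P.

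S100P, a placental S100 protein that binds ezrin and AGER, had 1, 1 and 1 counts in sh-NC and 0, 3 and 0 counts in sh-IGF2BP3 libraries. It was at or near 0 throughout, did not pass the filter on low counts and was not compared. Together the 10 genes took 0.0677%, 0.0591% and 0.0615% of the counts in the sh-NC libraries and 0.0957%, 0.107% and 0.0611% in the sh-IGF2BP3 libraries. S100A4 and S100A6 made up 55.1% to 66.7% of these counts, so the sums mostly follow those 2 genes. The total of sh-IGF2BP3 3 lay within the range of the sh-NC libraries, and the other 2 sh-IGF2BP3 libraries lay above it. A change in the share of cells that express a gene and a change in the RNA per cell cannot be told apart in these bulk libraries.

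**Figure D1:**
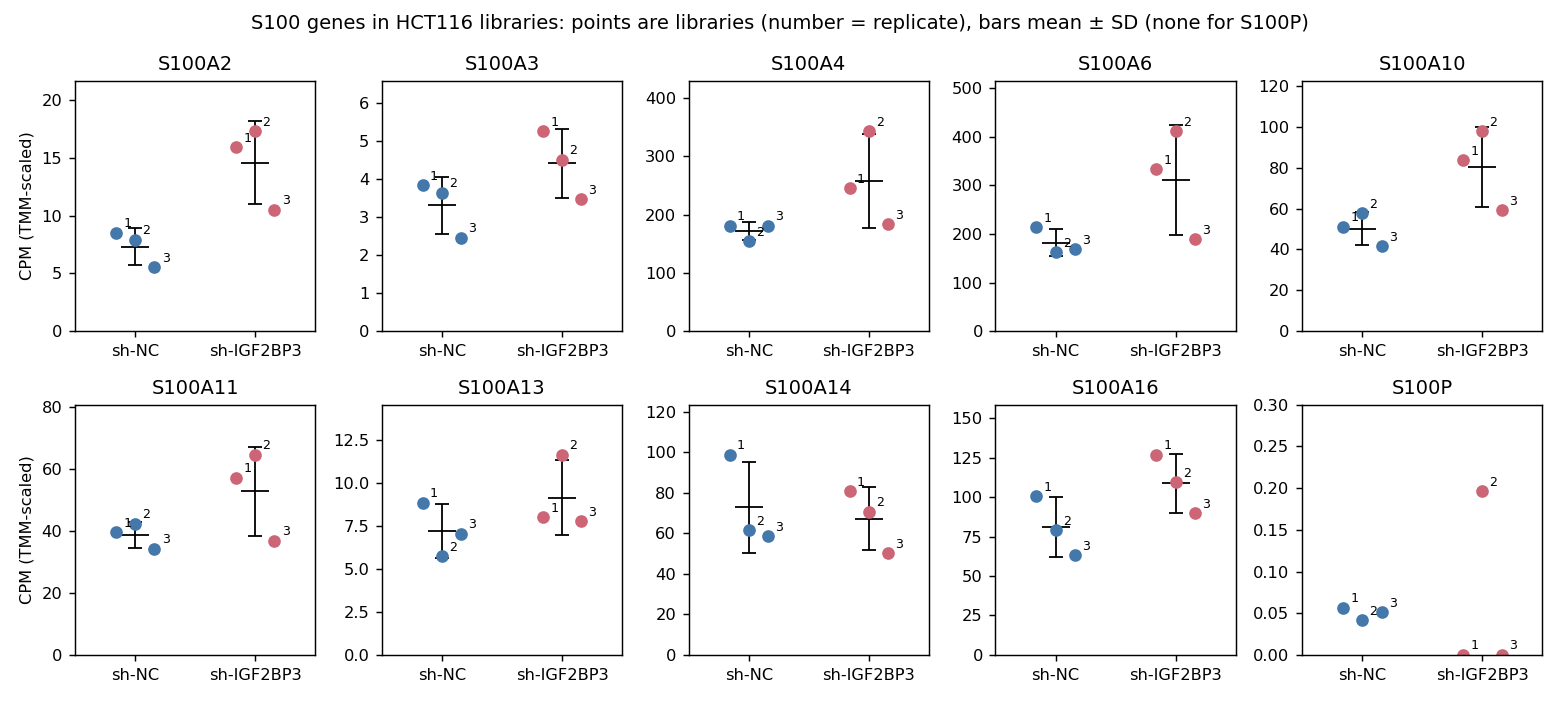
Level of each of the 10 S100 genes in CPM (linear axes from 0) in the 3 sh-NC and 3 sh-IGF2BP3 libraries. Points are libraries numbered by replicate and bars are the mean ± SD, left out for S100P. The groups separate for S100A2, S100A4 and S100A10 and overlap for the other genes.

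No member passed the thresholds of the study, an adjusted p below 0.05 with a change of more than 1.5-fold, in edgeR's test over the 16753 genes kept by the filter. That filter kept 9 of the 10 genes. Among all tested genes, 0 were called higher (0.0%) and 0 lower (0.0%). At an unadjusted p below 0.05, S100A2, S100A4, S100A6 and S100A10 were higher in sh-IGF2BP3, 4 of 9, beside 13.6% of all genes tested. This count fell to 1 (S100A2) with sh-IGF2BP3 2 left out, beside 7.53%, and was 5 with sh-NC 1 left out, beside 17.7%, and 6 with sh-IGF2BP3 3 left out, beside 14.3%. In the lower direction there were 0 of 9 members, beside 8.54% of all genes. The 9 log2 fold changes ran from −0.12 to 0.99 with a median of 0.45, against a median of −0.014 over all genes tested. The fold change was above 0 for 8 of 9 members, beside 49.0% of all genes, and above 1.5-fold for S100A2, S100A6 and S100A10, 3 of 9, beside 12.2%.

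S100A2, a nuclear S100 protein of epithelial cells that binds p53, showed the largest difference. It was at 8.52, 7.93 and 5.52 CPM in the sh-NC libraries and at 15.95, 17.33 and 10.51 CPM in the sh-IGF2BP3 libraries. Every sh-IGF2BP3 library lay above every sh-NC library, with sh-IGF2BP3 3 nearest to the controls. The means were 7.32 ± 1.59 and 14.6 ± 3.61 CPM (SD, n = 3), a ratio of 1.99, and the log2 fold change was 0.99 ± 0.27 (SE). Its p was 0.00237 before and 0.103 after adjustment over all genes (edgeR), and the two-sided exact permutation test gave p = 0.1, the smallest that 3 libraries against 3 allow.

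S100A10 (p11), which has lost calcium binding and pairs with annexin A2 at the cell membrane, was at 51.2, 57.8 and 41.5 CPM in the sh-NC libraries. In the sh-IGF2BP3 libraries it was at 83.6, 98.0 and 59.3 CPM. The groups did not overlap, although sh-IGF2BP3 3 stood only just above sh-NC 2. The log2 fold change was 0.68 ± 0.21 (SE), with an adjusted p of 0.119 in edgeR.

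S100A4, a partner of nonmuscle myosin heavy chain known from metastasis models, was at 181, 155 and 181 CPM in the sh-NC libraries and at 245, 343 and 184 CPM in the sh-IGF2BP3 libraries. The groups were separated by a narrow gap, since sh-IGF2BP3 3 and sh-NC 1 were almost level. Its log2 fold change was 0.58 ± 0.22 (SE), with an adjusted p of 0.152 in edgeR, and 0.33 with sh-IGF2BP3 2 left out. Groups did not overlap, with sh-IGF2BP3 higher, for these 3 genes of 9, beside 13.2% of all genes tested, and in the lower direction for 0 of 9, beside 11%.

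S100A6, which binds annexins and the ubiquitin ligase adaptor CACYBP, was at 214, 163 and 169 CPM in the sh-NC libraries and at 333, 412 and 190 CPM in the sh-IGF2BP3 libraries. The first 2 sh-IGF2BP3 libraries were far above the controls, whereas sh-IGF2BP3 3 fell below sh-NC 1. The log2 fold change was 0.78 ± 0.25 (SE), with an adjusted p of 0.122 in edgeR.

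S100A11, S100A16, S100A3 and S100A13 had smaller differences and overlapping groups. S100A11, a partner of annexin A1, was at 34.3 to 42.4 CPM in sh-NC and 36.9 to 64.6 CPM in sh-IGF2BP3 libraries, with a log2 fold change of 0.45 and an adjusted p of 0.239. S100A16 was at 63.1 to 101 CPM and 89.8 to 127 CPM, with a log2 fold change of 0.43 and an adjusted p of 0.245. S100A3, a cysteine-rich protein known from hair cuticle, had 48 to 92 counts a library and a log2 fold change of 0.41 ± 0.32 (SE). S100A13, which takes part in the release of FGF1, was at 5.74 to 8.86 and 7.78 to 11.6 CPM, with a log2 fold change of 0.34 ± 0.28 (SE).

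S100A14 differed from the other tested genes in its direction. It was at 98.7, 61.4 and 58.5 CPM in the sh-NC libraries and at 80.8, 70.6 and 50.1 CPM in the sh-IGF2BP3 libraries. The groups overlapped and sh-NC 1 was the highest of the 6 libraries. The log2 fold change was −0.12 ± 0.23 (SE), with an adjusted p of 0.793 in edgeR, and leaving out sh-NC 1 gave 0.17, leaving out sh-IGF2BP3 3 gave 0.035.

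The order of the libraries was alike for many members. sh-IGF2BP3 2 was the highest library for 6 of the 9 genes and sh-IGF2BP3 1 for 2, and sh-NC 3 was the lowest for 5. Relative to the mean of the 6 libraries, the median member stood at −0.11, −0.23 and −0.45 on the log2 scale in the sh-NC libraries. The values for the sh-IGF2BP3 libraries were 0.42, 0.54 and −0.11. The median member in sh-IGF2BP3 3 was thus level with that in sh-NC 1, the library closest to it over all genes.

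**Figure D2:**
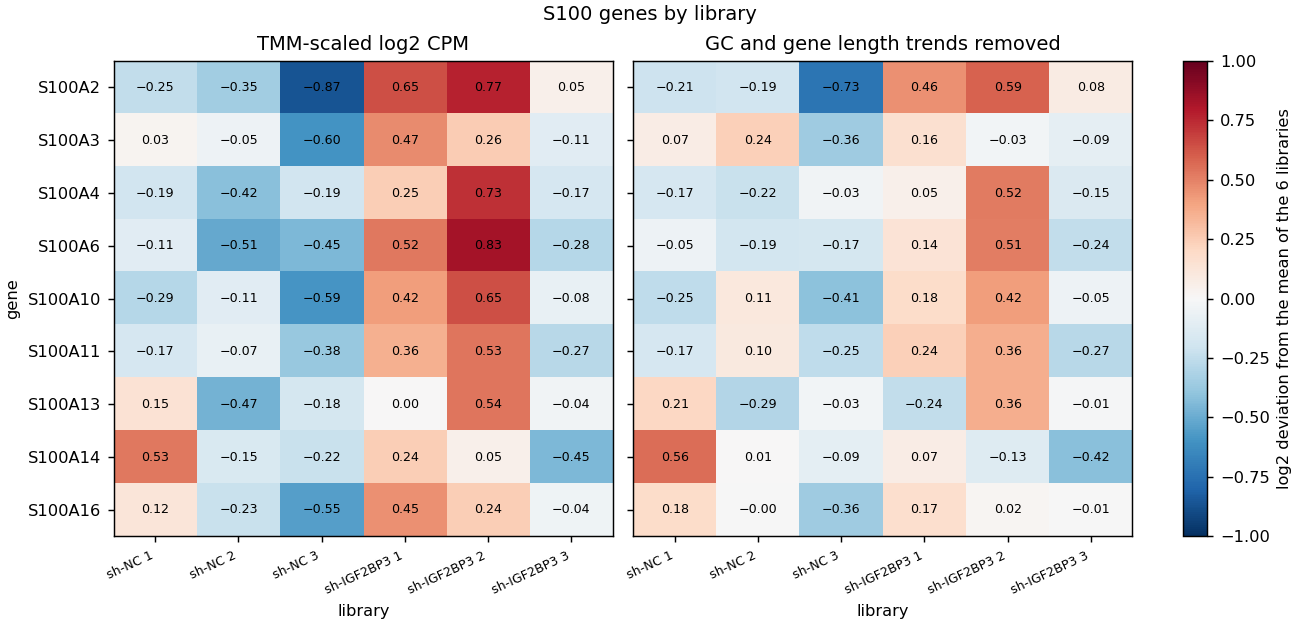
Deviation of each tested S100 gene in each library from its mean over the 6 libraries, on the log2 scale (colour and printed value), before (left) and after (right) each library's trends with GC content and gene length were removed. On the left sh-IGF2BP3 1 and 2 are mostly red and sh-IGF2BP3 3 is mostly near or below 0. On the right most values are closer to 0, and S100A2 keeps the 3 sh-IGF2BP3 libraries above the 3 sh-NC libraries.

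Calls among the members depended on those 2 libraries. With sh-NC 1 left out, edgeR called S100A2, S100A6 and S100A10 higher, 3 of 9, beside 10% of the genes tested in that fit. Their log2 fold changes were then 1.12, 0.91 and 0.70. With the trends with GC content and gene length also removed, 0 of 9 were called higher in that fit, beside 4.23%. Without sh-IGF2BP3 3, only S100A6 was called higher, 1 of 9 beside 1.23%, with a log2 fold change of 1.02 and an adjusted p of 0.0474. With no filter on low counts S100A2 and S100A6 were called higher, 2 of 10 beside 1.89%. DESeq2 called S100A2 higher, 1 of 9 beside 4.29%, with an adjusted p of 0.0241.

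The fold changes over the whole table moved with GC content, and the members are GC-rich. The GC content of their longest transcripts was 53.8% to 60.2%, at the percentiles 66.6 to 86.2 of the genes tested, whose median was 48.7%. The trends of each library with GC content and gene length were therefore removed as an alternative. The part of the difference carried by the trends was 0.20 to 0.44 on the log2 scale for the 9 genes, largest for S100A6, the gene with the highest GC content. Whether the trends are technical or part of the response to the shRNA was not tested.

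**Figure D3:**
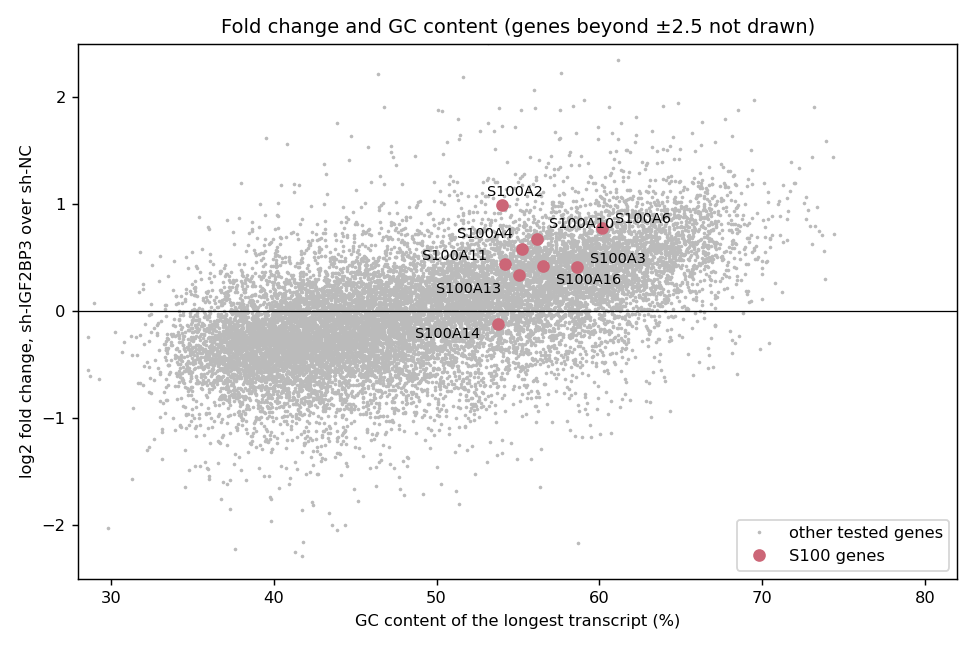
Log2 fold change (sh-IGF2BP3 over sh-NC) against GC content of the longest transcript in percent, for all tested genes with a known GC content (grey) and the 9 tested S100 genes (red). The grey points drift upwards with GC content, and the S100 genes lie between 53.8% and 60.2%, with S100A2 at 0.99 and S100A14 at −0.12.

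With the trends with GC content and gene length removed, S100A2 remained the member with the largest value, at 0.76 ± 0.23 (SE) on the log2 scale. S100A10, S100A4, S100A6 and S100A11 were then at 0.36, 0.31, 0.31 and 0.23, and S100A16, S100A13 and S100A3 at 0.10, 0.09 and 0.02. S100A14 was at −0.33 ± 0.20 (SE). The median of the 9 was 0.23. S100A2 alone had an unadjusted p below 0.05, 1 of 9 higher beside 6.88% of all genes, and there were 0 of 9 lower beside 3.59%. Its adjusted p was 0.415. The fold change was above 0 for 8 of 9 members, beside 51.4% of all genes. Groups did not overlap for S100A2 alone, 1 of 9 higher beside 8.45%, and 0 of 9 lower beside 6.69%.

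When principal transcripts supplied both GC content and length in place of those of the longest transcript and the gene model, the median of the 9 was 0.0084. S100A2 was at 0.62 ± 0.21 (SE) and S100A10 at 0.27, whereas S100A4, S100A6 and S100A16 were at 0.10, 0.056 and 0.0084. S100A11, S100A3 and S100A13 were at −0.064, −0.16 and −0.16, and S100A14 at −0.42 ± 0.19 (SE). The fold change was above 0 for 5 of 9, beside 49.6% of all genes. Groups did not overlap for S100A2 in the higher direction, 1 of 9 beside 7.53%, and for S100A14 in the lower direction, 1 of 9 beside 7.63%. S100A2 was thus the only one of the 9 whose sh-IGF2BP3 libraries all lay above its sh-NC libraries under TMM alone and under both removals of trends, 1 of 9 beside 4.2% of all genes tested.

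**Figure D4:**
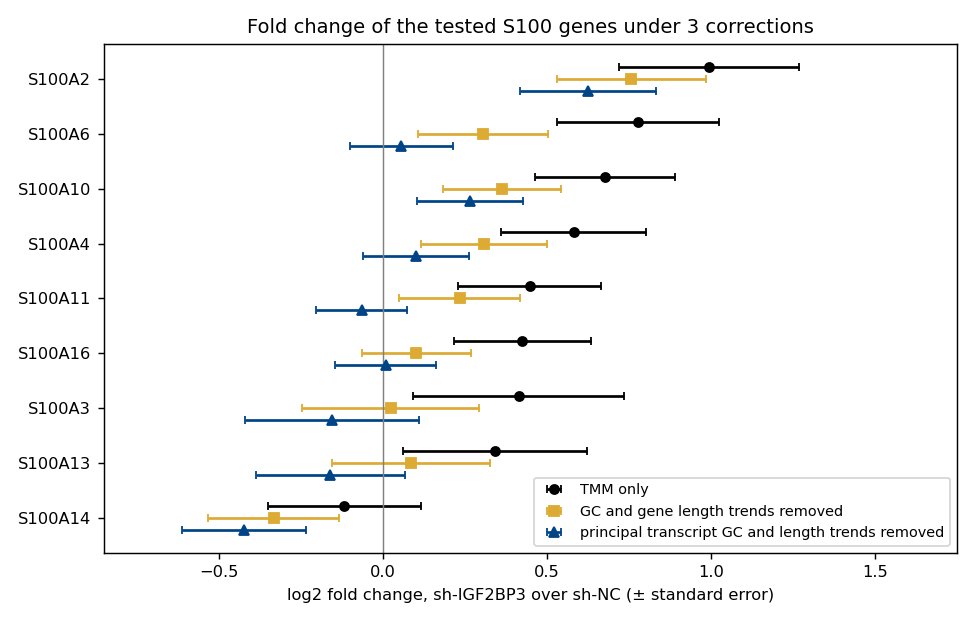
Log2 fold change (sh-IGF2BP3 over sh-NC, points) with its standard error (bars) for the 9 tested S100 genes with TMM alone, with trends with GC content and gene length removed, and with trends taken from the principal transcript removed. S100A2 runs from 0.99 to 0.62, S100A6 from 0.78 to 0.056, and S100A14 from −0.12 to −0.42.

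Of 11 other genes of the family, 2 were tested. S100A5 was at 4.34 to 4.74 CPM in sh-NC and 5.22 to 7.39 CPM in sh-IGF2BP3 libraries, and S100A1 at 1.12 to 1.58 and 1.70 to 2.29 CPM. The groups did not overlap for either, 2 of 2 beside 13.2% of all genes tested. Their log2 fold changes were 0.43 and 0.52, with adjusted p-values of 0.381 and 0.417 in edgeR. After the removal of trends with GC content and gene length the fold changes were 0.27 and 0.13. Only S100A5 then had groups that did not overlap, 1 of 2 beside 8.45%. With the trends of the principal transcript removed the fold changes were 0.044 and −0.10, and the groups overlapped for both, beside 7.53% of genes higher without overlap. S100A8, S100A9 and S100A12, the S100 proteins of myeloid cells, and S100A7, S100A7A, S100A7L2 and S100Z had 0 counts in all 6 libraries. S100B had 3 and 2 counts in sh-NC 1 and 2 alone, and S100G had 1 and 2 counts in sh-IGF2BP3 2 and 3 alone.

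Of 26 genes for partners and receptors of S100 proteins, 24 were tested and 0 passed the thresholds in edgeR. At an unadjusted p below 0.05, 5 were higher in sh-IGF2BP3 (ANXA2, MYH9, FKBP4, PPP5C and BSG) and 2 lower (SYT1 and HLTF), beside the 13.6% and 8.54% of all genes. With the trends with GC content and gene length removed, ANXA2, CACYBP, SUGT1 and PLAT were higher, 4 of 24 beside 6.88%. In that fit 0 were lower, beside 3.59%. With TMM alone, higher partners numbered 7 of 24 with sh-NC 1 left out, beside 17.7%, and 4 with sh-IGF2BP3 3 left out, beside 14.3%. With sh-IGF2BP3 2 left out there were 2, beside 7.53%. There was 1 with sh-NC 2 left out and 1 with sh-NC 3 left out, where 1212 and 1307 genes were higher. Lower partners numbered 4 with sh-NC 1 left out, where 2463 of 17379 genes were lower. They numbered 0 with sh-NC 2 or sh-NC 3 left out, where 707 and 656 genes were lower. With sh-IGF2BP3 2 left out there was 1, where 665 genes were lower. The median of the 24 was 0.13. Groups did not overlap, with sh-IGF2BP3 higher, for 7 of 24 (ANXA2, ANXA6, ANXA11, MYH9, PLAT, PPP5C and BSG), beside 13.2% of all genes. With sh-IGF2BP3 lower there were 0, beside 11%. With the trends with GC content and gene length removed, 5 did not overlap and were higher, beside 8.45%, and 0 lower, beside 6.69%. With those of the principal transcript removed these counts were 4, beside 7.53%, and 1, beside 7.63%. With sh-NC 1 left out, edgeR called MYH9, FKBP4, PPP5C and BSG higher, 4 of 24 beside the 10% of all genes, and SYT1 and HLTF lower, 2 of 24 beside 5.67%. With sh-IGF2BP3 3 left out, 0 of 24 were called. TLR4 had 0 counts in every library and DLC1 at most 6.

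ANXA2, the annexin that holds S100A10 at the membrane, was at 997, 1123 and 884 CPM in the sh-NC libraries and at 1299, 1621 and 1251 CPM in the sh-IGF2BP3 libraries. The groups did not overlap, and its log2 fold change of 0.47 became 0.76 with the trends with GC content and gene length removed and 0.46 with those of the principal transcript. None of the 3 fits passed after adjustment, with adjusted p-values of 0.181, 0.415 and 0.422 in edgeR. AHNAK, a large scaffold protein bound by S100A10 with annexin A2, was at 1195 to 1670 CPM and 943 to 1242 CPM, with a log2 fold change of −0.38 and overlapping groups. Its value was −0.19, again with overlap, with the trends with GC content and gene length removed, and −0.91 with those of the principal transcript removed (adjusted p = 0.416 in edgeR), where the sh-IGF2BP3 libraries all lay below the sh-NC libraries.

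MYH9, the nonmuscle myosin heavy chain bound by S100A4, was at 927, 757 and 657 CPM in the sh-NC libraries and at 1315, 1031 and 1008 CPM in the sh-IGF2BP3 libraries. Its groups did not overlap, and the log2 fold change was 0.52 with an adjusted p of 0.164 in edgeR. It was 0.34 with the trends with GC content and gene length removed and 0.34 with those of the principal transcript. The groups did not overlap in either, with adjusted p-values of 0.562 and 0.531 in edgeR. CACYBP, the partner of S100A6, had a log2 fold change of 0.44 with overlapping groups, and 0.67 with groups that did not overlap after removal of the trends with GC content and gene length. ANXA1, the partner of S100A11, had −0.16 before and 0.086 after that removal.

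Among receptors, BSG (basigin), to which secreted S100A9 binds, was at 365, 285 and 241 CPM in the sh-NC libraries. In the sh-IGF2BP3 libraries it was at 606, 573 and 383 CPM, so that the groups did not overlap. Its log2 fold change was 0.81 with an adjusted p of 0.103 in edgeR and 0.0275 in DESeq2, and 0.35 with overlapping groups after the removal of trends with GC content and gene length. With those of the principal transcript removed it was 0.29 and the groups did not overlap (adjusted p = 0.537 in edgeR). AGER was at 2.97 to 5.06 CPM in sh-NC and 4.20 to 4.75 CPM in sh-IGF2BP3 libraries. Its log2 fold change was 0.18, and −0.22 with the trends with GC content and gene length removed. Of the co-chaperones that S100 proteins bind, FKBP4, PPP5C and STIP1 had log2 fold changes of 0.55, 0.53 and 0.30. With the trends with GC content and gene length removed these were 0.52, 0.39 and 0.11. FGF1 and SYT1, which are released with or act beside S100A13, had −0.89 ± 0.58 (SE) and −0.52 ± 0.22 (SE), and FGF1 had at most 26 counts in a library. Groups overlapped for FGF1 and SYT1, whose values were −0.69 and −0.18 with the same trends removed.

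**Figure D5:**
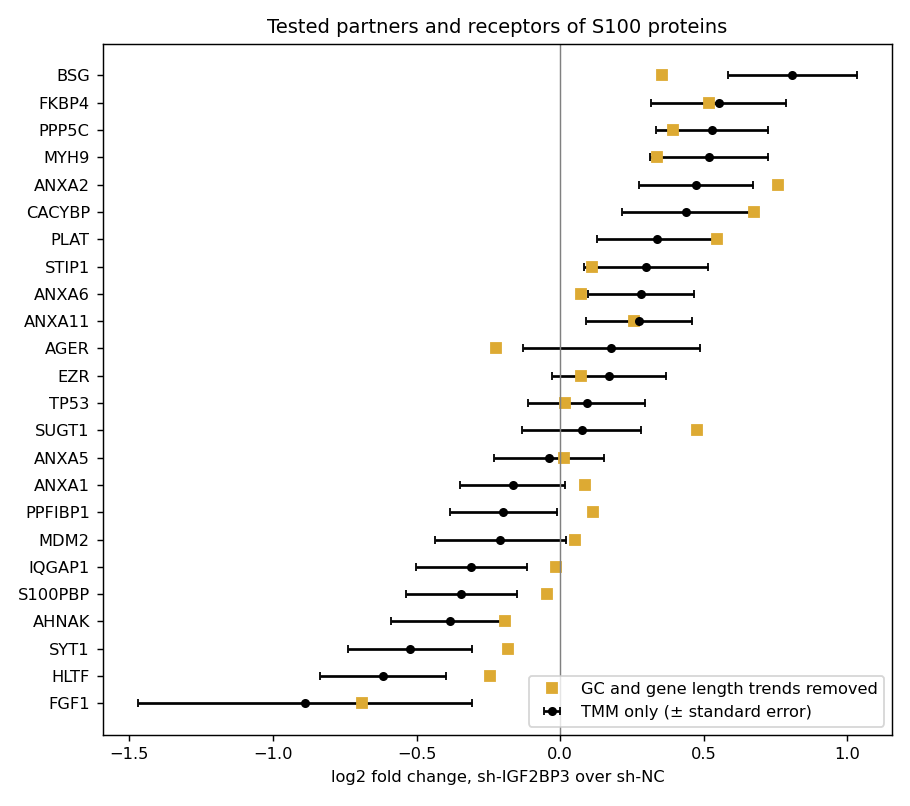
Log2 fold change (sh-IGF2BP3 over sh-NC) of the 24 tested partner and receptor genes with TMM alone (black points, bars are standard errors) and with trends with GC content and gene length removed (yellow squares). BSG is highest with TMM alone at 0.81 and moves to 0.35, while ANXA2 moves from 0.47 to 0.76.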

How the data were processed

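RNA-seq was measured in 3 sh-NC and 3 sh-IGF2BP3 libraries of total RNA, grouped by the sample titles. The authors deposited raw counts for 62710 genes, and FPKM values, which are those counts divided by the library total and by a gene length identical in all libraries. The submitters' processing notes name GRCh38 and CASAVA, and the aligner, counter and use of strand are not given in the sources used here. Counts were filtered with filterByExpr, normalized by TMM and tested in R 4.3.3 with edgeR 4.0.16 (two-sided quasi-likelihood test, Benjamini-Hochberg adjustment over 16753 genes). CPM are TMM-scaled, and log2 CPM used a prior count of 2. Trends with GC content and length were splines with 5 degrees of freedom, removed as offsets, with GC content known for 96.9% of tested genes. Alternatives used DESeq2 1.42.0, limma 3.58.1 on log2(FPKM + 1) and log2(FPKM + 0.1), other normalizations and filters, a replicate block, and each library left out. The edgeR, DESeq2 and limma fits were tested on simulated counts without GC or length trends, which cannot show how well removing trends works. Depth of 16146718 to 23576469 counts limits precision for S100P, S100A1 and S100A3. Named genes were the 10 members, other S100 genes, a list of 26 partners, IGF2BP3, the markers, and genes overlapping a member. The members and lists were chosen with earlier results of these data known. Promoter sequences are from RefSeq (GRCh38.p14), and protein sequences were not used here.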

Additional observations from a re-analysis of the deposited data

How the results depend on the processing

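No setting gave a member called lower. DESeq2 called 562 genes higher and 137 lower over the whole table, with 1 member (S100A2) and 1 partner (BSG) higher. DESeq2 was also run with 3 other settings of its independent filtering and of rows at 0 counts, after the data were seen. The calls were then 562, 560 and 566 genes higher and 137, 136 and 134 lower, with 1 member and 1 partner higher in each. RLE normalization and a minimum of 10 counts in every library each called 1 gene higher, and limma on log2(FPKM + 1) called 1 lower. No filter on low counts called 687 higher and 150 lower, with 2 members and 1 partner higher. With 1 library left out, with or without trends removed, the calls ran from 0 to 1739 genes higher and 0 to 985 lower, from 0 to 3 members higher, and from 0 to 4 partners higher and 0 to 2 lower. The highest counts were without sh-NC 1. With the trends with GC content and gene length also removed, that setting called 735 higher, 182 lower, 0 members and 4 partners higher. Those 4 partners were ANXA2, CACYBP, SUGT1 and FKBP4, of which FKBP4 alone was also called before the trends were removed.

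The members' median log2 fold change of 0.45 ran from 0.12 to 0.64 with 1 library left out, with or without the GC and length trends, and was 0.0084 with the trends of the principal transcript removed, a setting added after the data were seen. With those trends removed S100A3, S100A11, S100A13 and S100A1 were at −0.16, −0.064, −0.16 and −0.10 and ANXA1 at 0.051. ANXA1 was at 0.13 with the GC trend removed, 0.086 when length was removed as well and 0.090 with the replicate block added to that. The next ranges are over the fits with 1 library left out, with or without the GC and length trends removed. S100A3 ran from −0.14 to 0.55, S100A13 from −0.081 to 0.52 and S100A14 from −0.46 to 0.17. S100A16 ran from −0.037 to 0.62 and ANXA1 from −0.23 to 0.17. With trends also removed and 1 library left out, the median had a value of 0.15 without sh-NC 3, S100A3 of −0.039 without sh-IGF2BP3 1, S100A13 of −0.029 without sh-NC 2, and ANXA1 of 0.17, 0.092 and 0.020 without sh-NC 1, 2 or 3 and 0.095, 0.089 and 0.10 without sh-IGF2BP3 1, 2 or 3. STIP1 was at −0.078 with trends removed and sh-NC 3 left out. AGER was at −0.15 with the GC trend removed, −0.22 with length as well, −0.20 with the block added and −0.30 with the principal transcript, and, with trends removed, at −0.25 and −0.37 without sh-NC 1 or 2 and at −0.15, −0.20 and −0.28 without sh-IGF2BP3 1, 2 or 3. S100A2, S100A4, S100A6 and S100A10 were above 0 under all 28 alternatives.

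The study describes its samples as pairs, but no source used here says what a shared replicate number marks. The numbers were therefore not taken as pairs. Each library's deviation from its own group mean was correlated with those of the other group over the tested genes. These correlations were −0.28, −0.19 and −0.043 for same-numbered libraries and −0.26 to 0.32 for different-numbered ones. The deviations within a group cancel for each gene, so the correlations limit one another and cannot decide whether the numbers mark pairs. With the replicate block the members' median was 0.44, and 0.22 with the GC and length trends also removed, and 0 members were called. Depth limits what can be said of S100P, with at most 3 counts in a library.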
